A study of Mus musculus with 32 samples.

Results

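The lysosomal genes described here are 38 genes of lysosomal hydrolases, lysosomal membrane proteins and their transcriptional regulators, listed together with Gpnmb by name and not by their values. All 38 had a row among the 21829 mouse genes of the deposited table, and 36 passed the filter on low counts. The comparison was between cells of EL08-1D2, a mouse mesenchymal stromal line derived from embryonic liver, kept without azacitidine (16 libraries) or with azacitidine (16 libraries). Azacitidine resembles cytidine, and once built into DNA it binds and depletes DNA methyltransferases. All libraries came from this line, and dose, duration and the number of separate cultures are not given in the labels used here. The table holds unique molecular identifiers (UMIs), which count each cDNA molecule once, with between 818619 and 5039721 UMIs per library. The p-values therefore measure the spread between these libraries, which may be technical.

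Lysosomes are acidic organelles in which hydrolases break down proteins, glycans and lipids that arrive by endocytosis or autophagy. Many of their genes are driven together by the transcription factors TFEB, TFE3 and MITF, which bind the E-box CACGTG and its extension TCACGTGA in promoters. Gpnmb encodes a transmembrane glycoprotein of endosomes, lysosomes and melanosomes, and its transcription is known to rise with lysosomal stress and with MITF or TFE3 activity in macrophages, osteoclasts and melanocytes. The question addressed was whether Gpnmb and the lysosomal genes moved together when the stromal cells were given azacitidine.

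The regions before the transcription starts are shown for the 3 members with the largest increases, in which each CG, the dinucleotide that carries most DNA methylation in mammals, is in capitals, and for 3 hydrolase genes that hold the longer E-box, in which CACGTG is in capitals. Each is the 250 bases before a RefSeq start, 5′ to 3′ on the gene's strand, build GRCm38.p6, and for Ctsa, which has several starts, it is the window with the match.
Gpnmb, chr6:49036268-49036517, plus strand: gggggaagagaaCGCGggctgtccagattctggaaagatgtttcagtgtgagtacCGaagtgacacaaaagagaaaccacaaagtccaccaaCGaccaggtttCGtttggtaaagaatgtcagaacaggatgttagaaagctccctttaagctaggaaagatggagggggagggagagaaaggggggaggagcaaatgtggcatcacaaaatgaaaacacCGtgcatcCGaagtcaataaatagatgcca
Cd68, chr11:69666171-69666420, minus strand: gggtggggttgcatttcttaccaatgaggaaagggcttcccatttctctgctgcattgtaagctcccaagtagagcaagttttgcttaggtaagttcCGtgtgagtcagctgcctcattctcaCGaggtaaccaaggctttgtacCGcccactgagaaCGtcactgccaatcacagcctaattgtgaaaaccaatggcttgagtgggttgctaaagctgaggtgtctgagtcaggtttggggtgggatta
Ctss, chr3:95526536-95526785, plus strand: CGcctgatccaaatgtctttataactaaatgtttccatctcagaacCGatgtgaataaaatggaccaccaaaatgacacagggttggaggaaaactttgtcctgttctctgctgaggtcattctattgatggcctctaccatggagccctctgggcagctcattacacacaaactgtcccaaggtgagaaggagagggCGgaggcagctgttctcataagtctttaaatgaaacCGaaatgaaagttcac
Ctsa, chr2:164833523-164833772, plus strand: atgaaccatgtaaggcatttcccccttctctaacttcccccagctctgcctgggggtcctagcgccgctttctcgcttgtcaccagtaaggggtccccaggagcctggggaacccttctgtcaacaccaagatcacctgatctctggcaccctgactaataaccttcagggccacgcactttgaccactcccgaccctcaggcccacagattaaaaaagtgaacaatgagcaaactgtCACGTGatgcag
Ctsd, chr7:142387828-142388077, minus strand: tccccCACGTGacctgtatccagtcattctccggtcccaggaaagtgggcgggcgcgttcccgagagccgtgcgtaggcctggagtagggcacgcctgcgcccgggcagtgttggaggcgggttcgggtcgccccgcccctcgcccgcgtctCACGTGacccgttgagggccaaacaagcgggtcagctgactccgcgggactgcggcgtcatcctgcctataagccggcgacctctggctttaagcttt
Gla, chrX:134601006-134601255, minus strand: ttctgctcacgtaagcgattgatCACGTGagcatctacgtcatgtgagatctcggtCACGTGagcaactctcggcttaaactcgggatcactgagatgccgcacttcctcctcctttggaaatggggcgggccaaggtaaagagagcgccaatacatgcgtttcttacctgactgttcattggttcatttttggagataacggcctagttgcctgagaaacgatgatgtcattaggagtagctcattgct

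RefSeq windows were found for 34 of the 38 members (42 windows in all, since some genes have several starts). CACGTG, which reads the same on both strands, occurred in 11 of the 42 windows and in 6.02% of all 32851 windows of this length. The genes were Ctsa, Ctsd, Ctsf, Ctsl, Gaa, Gla, Glb1, Lamp1, Lgmn, Mcoln1 and Naglu. The longer TCACGTGA, which contains CACGTG and is also its own reverse complement, occurred in 4 windows (Ctsa, Ctsd, Gla, Mcoln1) and in 0.785% of all windows. TCATGTG, searched on both strands, occurred in 3 member windows (Gla, Grn, Scarb2) and in 3.25% of all. An exact match to the consensus of the CLEAR element, a longer palindrome that contains TCACGTGA, occurred in 0 of the 42 windows and in 0.24% of all. Sites that depart from this consensus were not counted, so the 0 does not show that the windows lack such sites. The Gpnmb and Cd68 windows held neither CACGTG nor TCATGTG, and they held 7 and 4 CG dinucleotides, beside a median of 7 in the members' windows and 6 in all windows.

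Gpnmb rose with azacitidine by more than any other tested member. Its level without the drug had a lowest value of 653 CPM, a median of 1045 and a highest of 2372 (CPM, the gene's count relative to its library's total, scaled so that libraries are comparable), and with the drug 1992, 3041 and 8297. The means were 1134 ± 437 and 3889 ± 2289 CPM (SD, n = 16 each), a log2 fold change of 1.78 (SE 0.23, edgeR quasi-likelihood test with Benjamini-Hochberg adjustment over all tested genes, adjusted p = 2.19e-06). This is a 3.43-fold increase with a 95% interval from 2.46 to 4.77. The gene (ENSMUSG00000029816) lies on chromosome 6 from 49036546 to 49070929 (GENCODE release M21, mm10). Of the 16 treated libraries 12 exceeded the highest untreated one. The overlap rested on 1 untreated library, number 8 at 2372 CPM, above 3 treated libraries of numbers 1 to 4 and 1 of 13 to 16.

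The levels of Gpnmb differed by replicate number, in 4 runs of 4, namely numbers 1 to 4, 5 to 8, 9 to 12 and 13 to 16, called runs below. The runs did not overlap without azacitidine, and with it only numbers 1 to 4 and 13 to 16 did (1992 to 2387 and 2318 to 2718 CPM). The labels do not say what a run of 4 numbers is. Without the drug the run means were 681, 1708, 1176 and 972 CPM, and with the drug 2102, 7466, 3407 and 2580 CPM. Within most runs the libraries lay close together, and the exceptions were the untreated number 8 beside 1448 to 1530 CPM in numbers 5 to 7, and the treated number 5 at 5240 beside 8069 to 8297 CPM in numbers 6 to 8. In each of the 4 runs every treated library exceeded every untreated one. The same held for Cd68 among the members and for 0.621% of all tested genes. The log2 fold change of Gpnmb was 1.63, 2.13, 1.53 and 1.41 in the 4 runs. Measured against the spread of libraries within runs, these values differed from each other (edgeR, interaction between azacitidine and run, adjusted p = 0.0311).

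Because libraries of a run resembled each other, Gpnmb was also tested on the sums of each run and group, 4 against 4. With these sums alone it was not called (log2 fold change 1.80, SE 0.45, edgeR adjusted p = 0.189). With the sums and a term for run it was (1.68, SE 0.12, edgeR adjusted p = 4.45e-05).

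**Figure D1:**
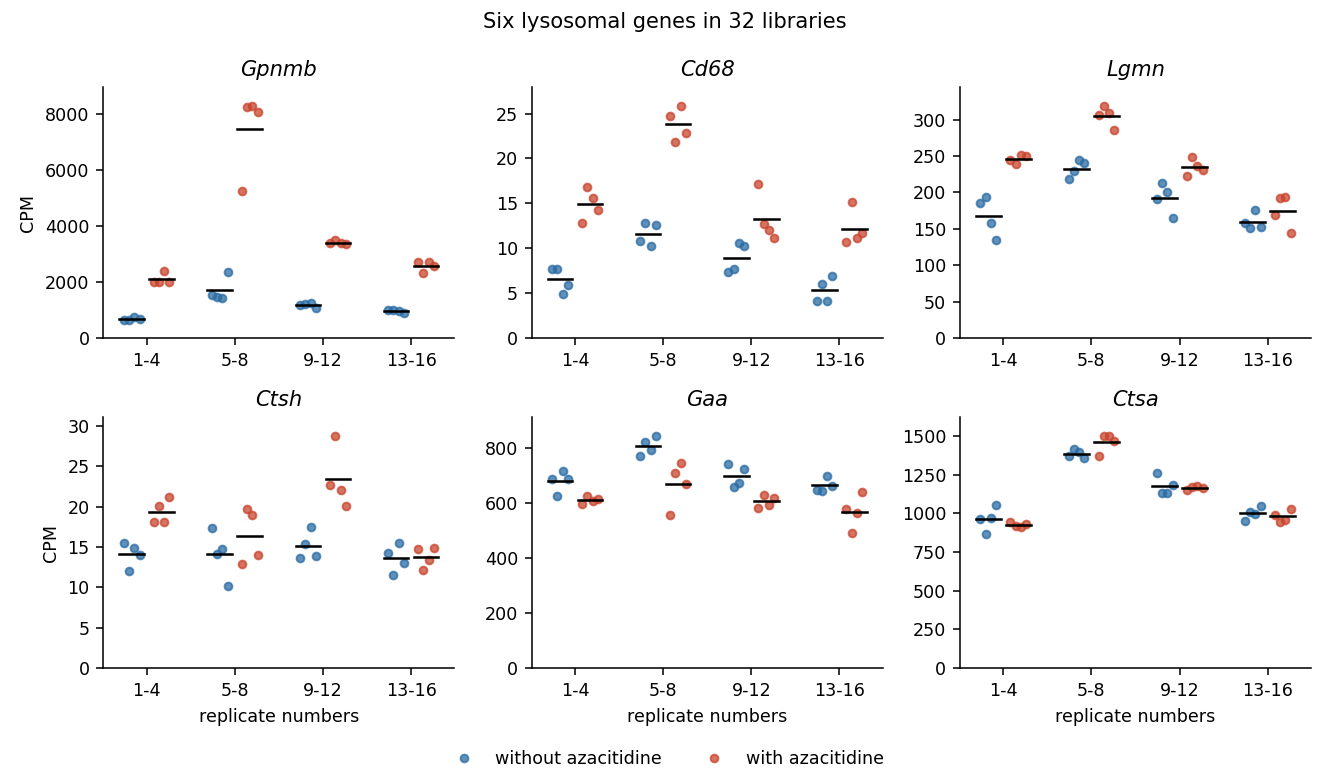
Level in CPM (linear axes from 0) of Gpnmb, Cd68, Lgmn, Ctsh, Gaa and Ctsa in each of 32 libraries, set out by replicate number in 4 runs. Each point is a library, blue where untreated and red where treated, and each bar is the mean of 4. Gpnmb and Cd68 do not overlap between the groups within any run, Gaa lies lower with the drug in each run, and Ctsa follows the runs but not the drug.

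Across the 36 tested members 4 rose and 1 fell, and 31 were not called. These 5 of 36 stand beside 5.65% of all tested genes called in either direction. The risers were Gpnmb, Cd68, Lgmn and Ctsh, beside 3.65% of all tested genes called as higher, and the one that fell was Gaa, beside 2.00% called as lower. The median log2 fold change of the 35 members other than Gpnmb was 0.06, and that of all tested genes was 0.00. These 35 lay between -0.21 and 0.99, 22 of them above 0 and 13 below. All 38 members together took 2.72% ± 0.31 of the UMIs without and 3.09% ± 0.37 with azacitidine. Summed without Gpnmb, they had a median of 26500 CPM (lowest 23730, highest 29970) without and 27990 CPM (24000 to 29650) with the drug, so that the groups overlapped.

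The number of members called depended on how the runs were treated. With a term for run 9 members were called as higher, namely Gpnmb, Cd68, Lgmn, Ctsh, Ctsb, Ctsk, Ctsz, Gusb and Scarb2, and with sums over runs and no such term 0 were (edgeR, in place of 4). With sums over runs and a run term 4 were called, Gpnmb, Cd68, Lgmn and Ctsk, and not Ctsb, Ctsz, Gusb, Scarb2 and Ctsh (edgeR adjusted p = 0.31, 0.324, 0.073, 0.195 and 0.177). The number of all tested genes called as higher changed too. It was 341 of 9344 in the main fit and 563 of 9344 with the run term. With sums alone it was 105 of 12281, and with sums and a run term 314 of 12281. The calls of Ctsh and Lgmn were lost when numbers 1 to 4 were left out (log2 fold changes 0.30 and 0.30, edgeR adjusted p = 0.198 and 0.175). In an earlier look at these data 5 libraries had stood apart, the untreated numbers 1 and 2 and the treated numbers 1, 2 and 4. Without these 5, Gpnmb (1.85), Cd68 (1.04) and Gaa (-0.23) remained called, Ctsh (0.30, edgeR adjusted p = 0.15) and Lgmn (0.35, 0.0726) did not, and Ctsz was called as higher.

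**Figure D2:**
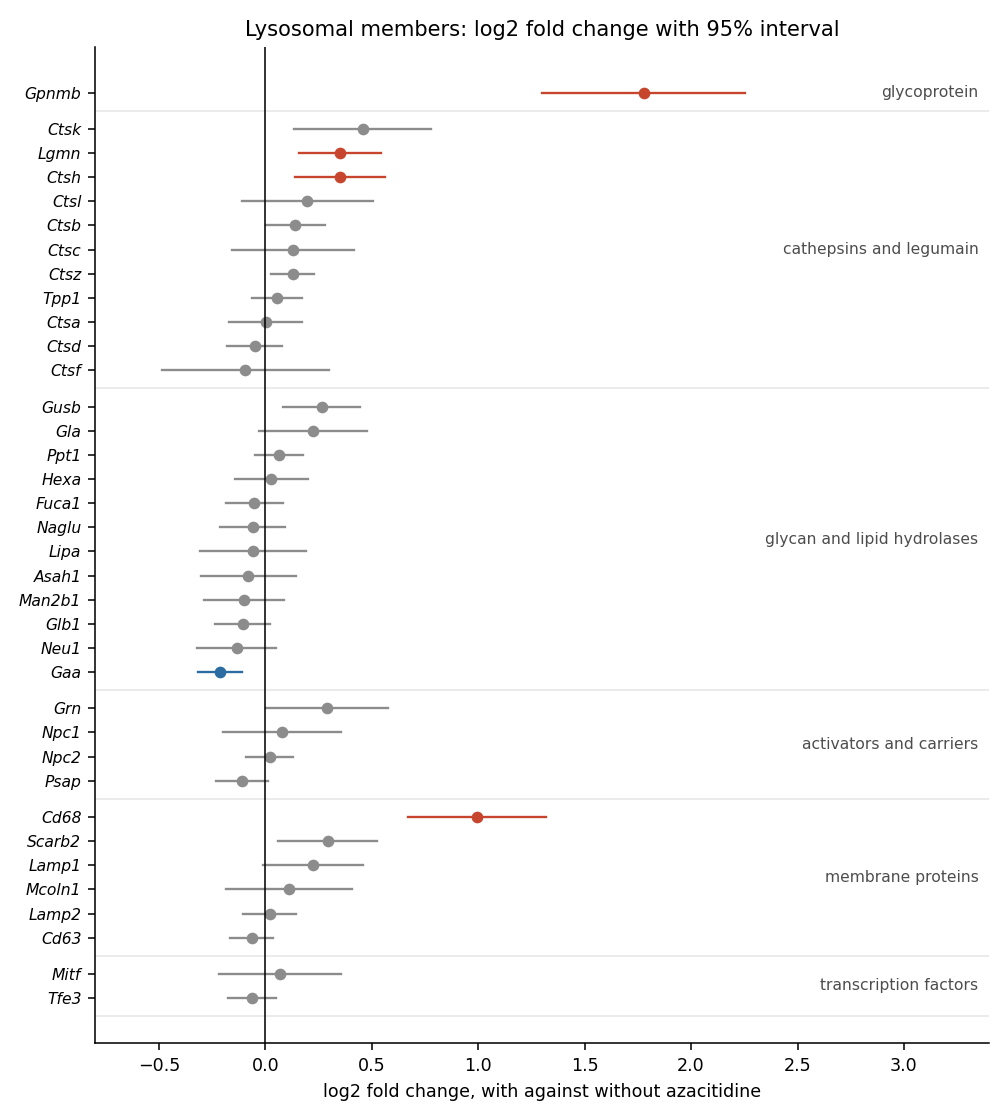
Log2 fold change, with against without azacitidine, of the 36 tested members, grouped by role. Points are edgeR estimates and lines their 95% intervals, red for genes called as higher, blue for lower and grey for not called. Gpnmb at 1.78 and Cd68 at 0.99 stand to the right of all other members, which lie between -0.21 and 0.46.

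Cd68, a heavily glycosylated membrane protein of the lysosome that is used as a marker of macrophages, rose 1.99-fold (95% interval 1.59 to 2.49, edgeR adjusted p = 3.04e-05). It was scarce in both groups, with a lowest, median and highest value of 4.17, 7.72 and 12.8 CPM without and 10.7, 14.7 and 25.9 CPM with the drug. In 9 of 16 treated libraries it exceeded the highest untreated value, and its log2 fold change was 1.09, 1.05, 0.54 and 1.22 in the 4 runs. With sums over runs it was not called (edgeR adjusted p = 0.255), and with sums and a run term it was (0.00106). After thinning of every library to the lowest depth it fell below the filter.

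The other membrane members were not called. Lamp1 and Lamp2, the main glycoproteins of the lysosomal membrane, had log2 fold changes of 0.23 (95% interval -0.01 to 0.46) and 0.02 (-0.10 to 0.14). The estimate of Lamp1 came mainly from numbers 1 to 4, with 0.63, 0.01, 0.07 and 0.06 in the 4 runs, and was 0.04 without those numbers. Scarb2, the receptor that carries glucocerebrosidase to lysosomes, averaged 37.3 ± 8.6 CPM in untreated and 45.6 ± 11.3 in treated libraries (edgeR adjusted p = 0.151). Cd63, a tetraspanin of late endosomes, had a lowest, median and highest value of 5952, 7089 and 7763 CPM without and 5873, 6863 and 7674 with azacitidine, and the groups overlapped almost wholly. Mcoln1, the lysosomal calcium channel, ranged from 60.1 to 137 CPM without and from 55.6 to 154 with it (adjusted p = 0.775, edgeR).

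Among the proteases 2 of 11 tested members rose, beside 3.65% of all tested genes called as higher. Lgmn, the asparaginyl endopeptidase legumain, had a lowest, median and highest value of 135, 188 and 244 CPM without and 144, 241 and 319 CPM with azacitidine. It rose 1.28-fold (95% interval 1.12 to 1.46, edgeR adjusted p = 0.0183), and 7 treated libraries exceeded every untreated one. Its log2 fold change was 0.53, 0.39, 0.28 and 0.14 in the 4 runs. Ctsh, an aminopeptidase cathepsin, rose 1.27-fold from 14.2 ± 1.9 to 18.2 ± 4.4 CPM (95% interval 1.10 to 1.47, edgeR adjusted p = 0.0368). Its log2 fold change by run was 0.46, 0.23, 0.62 and 0.00, with none in numbers 13 to 16.

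Ctsk, the collagen-degrading cathepsin of osteoclasts, had the largest estimate of the members that were not called, 0.46 on the log2 scale (SE 0.16, edgeR adjusted p = 0.086). Its values reached from 17.6 to 63.7 CPM without and from 23.5 to 66.4 with the drug. Ctsb, an abundant cysteine protease, had a lowest, median and highest value of 4970, 6287 and 7907 CPM without and 5751, 6779 and 7646 with azacitidine, a fold of 1.10 with an interval from 1.00 to 1.21 (edgeR adjusted p = 0.276). Ctsd, the main aspartic protease, had a log2 fold change of -0.05 (95% interval -0.18 to 0.08), Ctsl 0.20 (-0.11 to 0.51) and Ctsz, a carboxypeptidase, 0.13 (0.03 to 0.23). Without numbers 1 to 4 the estimate of Ctsl, a cysteine protease, was -0.01. Ctsc, Ctsf and Tpp1 lay between -0.09 and 0.13.

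Ctsa, the protective protein that holds neuraminidase and beta-galactosidase together, did not differ between the groups beyond its error. Its lowest, median and highest values were 866, 1095 and 1419 CPM without and 913, 1092 and 1502 CPM with azacitidine, a fold of 1.00 with an interval from 0.89 to 1.13.

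Of the 12 hydrolases of glycans and lipids 1 fell and 0 rose, beside 2.00% of all tested genes called as lower and 3.65% as higher. Gaa, the acid alpha-glucosidase that degrades glycogen, had a lowest, median and highest value of 627, 694 and 846 CPM without and 490, 613 and 748 CPM with azacitidine. It fell by 0.21 on the log2 scale (SE 0.05, edgeR adjusted p = 0.0064). In each run every treated library lay below every untreated one, which held for 0.118% of all tested genes. The decrease is relative to the other genes. Scaling by spike-in RNA moved the median of all tested genes to 0.31 and the value of Gaa to 0.12 (SE 0.20, edgeR adjusted p = 0.618). The SE of Gaa was larger with this scaling than in the main fit, so its value there does not settle the direction. The call was also lost after thinning and with sums over runs, with or without a run term (edgeR adjusted p = 0.17, 0.862 and 0.102).

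Gusb, the beta-glucuronidase, had 97.6 ± 18.6 CPM in untreated and 117 ± 21.6 in treated libraries (log2 fold change 0.27, edgeR adjusted p = 0.0766) and was not called. Hexa, a subunit of beta-hexosaminidase, was at 555 ± 130 and 566 ± 55 CPM, a log2 fold change of 0.03 (95% interval -0.14 to 0.20). Within runs it differed by 0.22, -0.30, 0.12 and 0.18, so that only numbers 5 to 8 lay lower with azacitidine. Gla, the alpha-galactosidase, had 0.23 (-0.03 to 0.48), and Glb1, Neu1, Man2b1, Fuca1, Naglu, Asah1, Lipa and Ppt1 lay between -0.13 and 0.06.

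None of the 4 activators and carriers was called by edgeR or DESeq2, with 1 at an unadjusted p under 0.05. That gene was Grn, the precursor of granulins, which averaged 1151 ± 276 CPM in untreated and 1407 ± 495 in treated libraries (edgeR adjusted p = 0.281). Its log2 fold change was 0.73 in numbers 1 to 4 and between 0.04 and 0.12 in the other runs, and 0.10 without numbers 1 to 4. Psap, the precursor of the saposins that activate sphingolipid hydrolases, had -0.11 (95% interval -0.23 to 0.01), and the cholesterol carriers Npc1 and Npc2 had 0.08 (-0.20 to 0.35) and 0.02 (-0.09 to 0.13).

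The transcription factors of the lysosomal programme showed no call. Tfe3 had a lowest, median and highest value of 59.7, 68.4 and 83.0 CPM without and 58.5, 66.3 and 79.8 CPM with azacitidine (log2 fold change -0.06, 95% interval -0.17 to 0.05). Mitf stood at 14.6 ± 4.7 and 15.4 ± 4.0 CPM (0.07, -0.22 to 0.35). For these 2 tested genes both edgeR and DESeq2 gave 0 calls, and 0 had an unadjusted p under 0.05. Tfeb was too scarce for the filter, with 129 UMIs in the 16 untreated and 192 in the 16 treated libraries, or 4.74 ± 1.91 and 4.78 ± 1.69 CPM. These are transcript levels, and these factors are known to be controlled largely by where the protein is in the cell.

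Ctss, a cathepsin of antigen-presenting cells, was the other member below the filter. It had 0 UMIs in the 16 libraries without azacitidine and 19 in those with it, spread over 11 libraries with at most 5 in one. The treated libraries of numbers 9 to 12 all had 0, and the means of the other runs were 0.64, 0.74 and 0.43 CPM. Relative to total UMIs, the pooled treated count was 4.52-fold that of a floor of 3 UMIs over the whole untreated group. This value makes no allowance for the sampling error of the 19 UMIs. In a fit without the filter Ctss was called (edgeR adjusted p = 0.00132). Of 21822 genes in that fit 3.94% were called in either direction, 3.29% as higher and 0.651% as lower.

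Other genes of the lysosome were read from lists of related function. Calls of genes outside the members, here and below, were not read from the fits with a run term or sums over runs. Of 27 tested lysosomal enzymes outside the members 3 rose and 0 fell, beside 3.65% of all tested genes called as higher and 2.00% as lower: Manba, the beta-mannosidase, from 6.79 ± 2.86 to 13.4 ± 5.0 CPM, Ctso, a cathepsin, from 31.7 ± 3.6 to 39.9 ± 5.4, and Naaa, an amidase of fatty acid ethanolamides, from 25.7 ± 6.0 to 32.4 ± 4.5. The log2 fold change of Manba was 1.00 (SE 0.19, edgeR adjusted p = 0.000379). Of 15 lysosomal membrane proteins 1 rose, Sidt2, which transports nucleic acids into lysosomes, from 10.8 ± 4.5 to 14.5 ± 3.0 CPM. The medians of both lists were 0.01 and 0.03 on the log2 scale.

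The 17 tested subunits of the proton pump that acidifies lysosomes gave 0 calls in edgeR and in DESeq2, 3 unadjusted p-values under 0.05, and estimates from -0.14 to 0.17. The same 0 calls came for 10 genes that sort enzymes to lysosomes, 16 genes of nutrient signalling to TFEB and 18 autophagy genes, with 1, 3 and 3 at an unadjusted p under 0.05 in edgeR. Their medians were -0.01, 0.01 and 0.00. Among 4 tested inhibitors of cathepsins 2 rose, beside 3.65% of all tested genes called as higher. Cst6, a secreted cystatin that inhibits legumain and cathepsins, rose from 53.8 ± 12.4 to 124 ± 56.7 CPM (log2 fold change 1.21, SE 0.17, edgeR adjusted p = 5.86e-06), and Serpinb6a, an intracellular serpin, from 188 ± 25 to 233 ± 33. The other 2 were not called: Cst3 averaged 2566 and 2564 CPM, and Cstb 1969 and 1838 CPM (adjusted p = 0.998 and 0.355, edgeR).

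**Figure D3:**
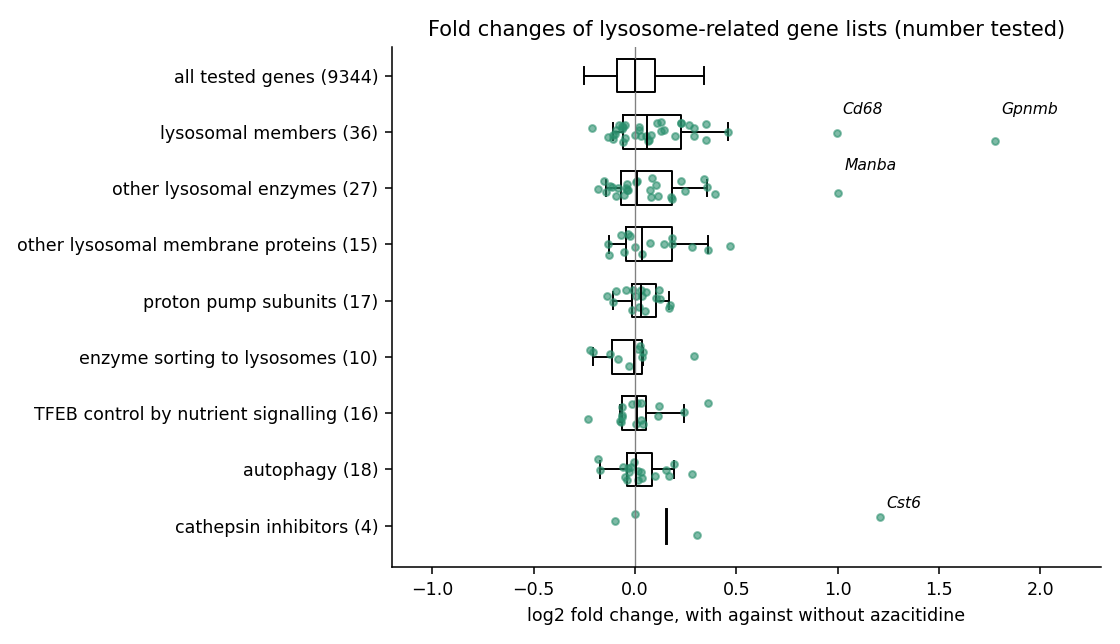
Log2 fold change, with against without azacitidine, of all tested genes, the lysosomal members and 7 related lists, with the number tested in brackets. Boxes are quartiles, whiskers the 5th to 95th percentile and points single genes, and a list of under 10 genes has its median only. The lists centre near 0, and Gpnmb, Cd68, Manba and Cst6 stand out to the right.

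Many members differed between the runs, and some did so in the order of Gpnmb. The order of the 4 run means of Gpnmb was the same in both groups, numbers 1 to 4 lowest, then 13 to 16, 9 to 12 and 5 to 8. Of the 35 other tested members 6 had this exact order in both groups, namely Ctsa, Ctsc, Ctsz, Tpp1, Gla and Mcoln1, beside 1.44% of all tested genes. In 19 of the 35 the highest run was 5 to 8 in both groups, beside 10.9% of all tested genes. A test of run next to treatment called 31 of the 35 and 53.0% of all tested genes (edgeR). This test and these orders were chosen after the values by run were seen.

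Ctsa shows this order without a call for azacitidine. Its run means were 964, 1386, 1179 and 1002 CPM without and 926, 1460, 1168 and 982 CPM with azacitidine, and in each run the libraries of both groups overlapped. For Mcoln1 they were 73.4, 123, 99.6 and 77.5 CPM without and 64.5, 141, 117 and 82.5 with the drug. Ranked by Pearson correlation of log2 CPM over the 32 libraries after removal of the group means, the 5 genes most like Gpnmb among 9343 were Atp6v0b, a proton pump subunit, Glmp, a lysosomal membrane glycoprotein, Ctsa, Angptl6, an angiopoietin-like secreted factor, and Gyg, the primer of glycogen synthesis. Atp6v0b stood at 415, 597, 498 and 458 CPM in the 4 runs without and at 420, 654, 494 and 469 CPM with azacitidine, and its log2 fold change was 0.05 (SE 0.08, edgeR adjusted p = 0.828). This ranking rests largely on the runs. After removal of the run means the 5 genes ranked 418, 3038, 3111, 29 and 1042, with correlations of 0.41, 0.10, 0.10, 0.66 and 0.29 over the 32 libraries. The members most like Gpnmb were then Gaa (0.55, rank 117), Naglu (0.53, rank 138) and Hexa (0.47, rank 250), which are given as a description. These values differed between the untreated and the treated group, with 0.26 and 0.75 for Gaa, 0.61 and 0.44 for Naglu, and 0.20 and 0.79 for Hexa. Within runs Gpnmb varied most in numbers 5 to 8, through the untreated number 8 and the treated number 5.

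Within runs no relation passed the test. After removal of the run means, 0 of 70 relations of Gpnmb with another tested member (35 in each group of 16 libraries) passed a permutation test within runs with Benjamini-Hochberg adjustment (100000 resamples, two-sided), and 7 had an unadjusted p under 0.05. The smallest adjusted p was 0.362. With azacitidine, the within-run variation of Gpnmb lay largely in number 5, which limits this test. Hexa with azacitidine reached a correlation of 0.79 at an unadjusted permutation p of 0.0776. The 0 therefore does not show that Gpnmb and these members move apart within runs. The median correlation was 0.11 without and 0.17 with azacitidine. Since most runs stood apart in Gpnmb, no correlation over all 16 libraries of a group is given, and 4 runs are too few to test the relation between runs. Depth also differed between runs: the untreated libraries held 818619 to 3210801 UMIs in numbers 1 to 4 and 1277717 to 1634734 in 5 to 8, and the treated ones 2058202 to 5039721 and 1695507 to 4218313. Its part in these orders was not tested.

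**Figure D4:**
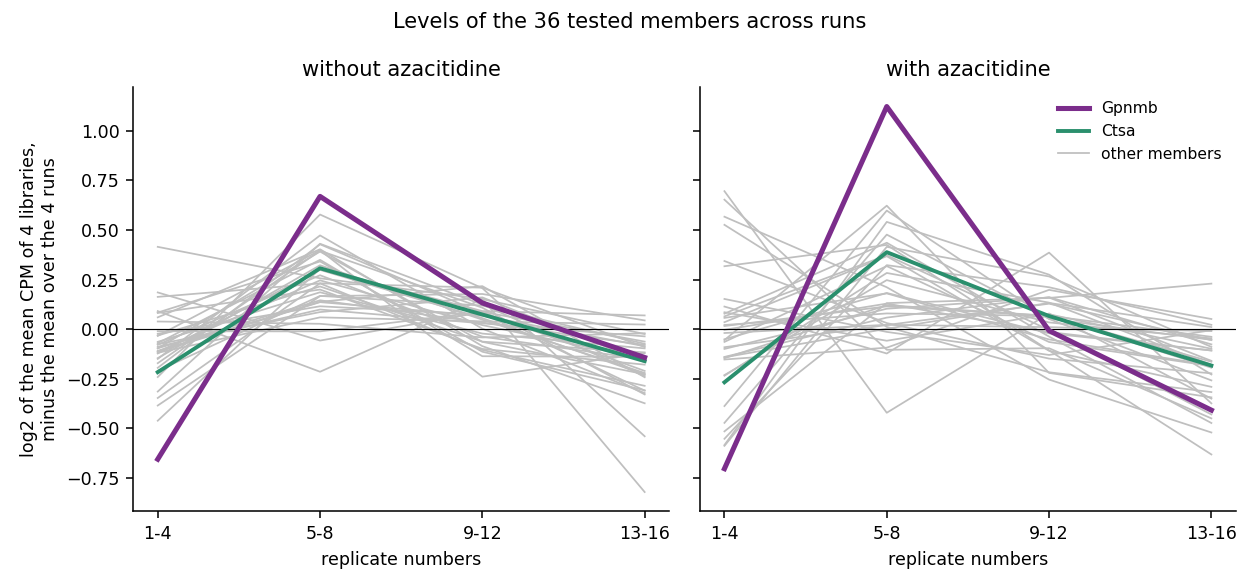
Mean level of each of the 36 tested members in the 4 runs, as log2 of the mean CPM of 4 libraries minus the gene's mean over the runs, without (left) and with (right) azacitidine. Gpnmb (purple) and Ctsa (green) have their lowest value in numbers 1 to 4 and their highest in 5 to 8 in both groups, and many other members (grey) peak in 5 to 8 as well.

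Gpnmb, Cd68 and Ctss are also genes of macrophages and osteoclasts, so markers of other cells were read beside them. Of 16 macrophage markers 10 had a row, and their summed level ranged from 5.50 to 28.1 CPM without and from 16.0 to 32.7 CPM with azacitidine. Cd14 was the only one tested, and it rose from 8.32 ± 3.28 to 13.7 ± 3.4 CPM (edgeR adjusted p = 0.0028). The UMI sums of single markers are not scaled for depth. All libraries together held 27338586 UMIs without and 38348576 with the drug. Most of the defining markers were at or near 0. An exception was Itgam, the integrin CD11b, with 143 UMIs without and 161 with the drug, or 5.63 and 4.47 CPM. Adgre1 had 0 UMIs without and 1 with the drug, Ptprc 1 and 4, Spi1 0 and 1, Csf1r 26 and 45, Lyz2 14 and 12. Fcer1g, which was chosen after its values were seen, had 4 and 65. Of 9 osteoclast markers 8 had a row, with summed levels of 24.0 to 67.9 and 16.5 to 58.2 CPM, and the 3 tested genes gave 0 calls in edgeR and in DESeq2, with 1 unadjusted p under 0.05. The tested ones were Mmp9 (25.1 CPM without and 17.5 with azacitidine), Itgb3 (8.01 and 6.09) and Nfatc1 (8.67 and 10.8). Of the others, Acp5 had 1 UMI without and 19 with azacitidine. Dcstamp had 2 and 9, Ocstamp 0 and 4, Oscar 3 and 1, and Tnfrsf11a 1 and 0. Of 6 melanocyte markers 2 had a row, Pmel with 20 and 40 and Mlana with 25 and 51 UMIs.

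All 7 stromal markers had a row. The collagen genes Col1a1 and Col1a2 fell by 0.37 (SE 0.08) and by 0.39 (SE 0.08) on the log2 scale, and Pdgfra, Pdgfrb, Vim and Cxcl12 were not called. These 2 of 6 tested markers stand beside 2.00% of all tested genes called as lower. That count of all genes depended on the fit: 187 in the main fit, 430 with a run term, 3 with sums over runs, 86 with sums and a run term, and 1 with spike-in scaling. Thy1, a surface marker of many mesenchymal cells, had 0 UMIs without and 26 with azacitidine. All 10 interferon-stimulated genes rose, beside 3.65% of all tested genes called as higher. They were led by Usp18, Ifit1, Rtp4 and Isg15, with a median log2 fold change of 1.56. For Ifit1 the change was 2.89, 0.85, 1.14 and 2.32 in the 4 runs, smallest in numbers 5 to 8, where that of Gpnmb was largest. The part of these genes in the changes of Gpnmb and Cd68 was not tested.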

How the data were processed

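RNA of 32 libraries was measured. Per the labels' protocols, column-purified RNA was converted to barcoded cDNA, pooled and pre-amplified with molecular identifiers. STAR 2.4.0, bedtools 2.17.0 and mm10 are listed per the submitters' processing notes, while the annotation, identifier collapsing and strand are not given in the sources used here. The deposited values are counts of UMIs per gene, without normalization found in them. Of 21897 rows, 68 were spike-in RNAs (0.106% of UMIs), used only for an alternative scaling. Symbols and positions came from GENCODE M21 (21506 of 21829 genes).

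The test was edgeR 4.0.16 (quasi-likelihood, robust, TMM, default filter by group) on 9344 genes with R 4.3.3, two-sided, called at an adjusted p under 0.05. It was tried on simulated libraries without differences between runs, so the simulation does not cover that feature of the data. CPM use TMM library sizes, and standard errors come from the fold change and F statistic. Log2 CPM for correlations had a prior count of 2. DESeq2 1.42.0 and 10 other settings were alternatives. No 2 libraries of a group differed by sampling noise alone (lowest chi-square per degree of freedom 1.13 and 1.11). The members, lists, settings and the rule for named genes (all members, up to 4 called genes of each other list in order of p, and 5 genes most like Gpnmb) were chosen with earlier results of these data known. Promoter windows came from RefSeq (GRCm38.p6).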

Additional observations from a re-analysis of the deposited data

Results flagged for a closer look

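The interaction between azacitidine and run was called for 3 of the 36 tested members, beside 3.02% of all tested genes (edgeR, Benjamini-Hochberg adjustment over all tested genes). Here the 4 libraries of a run and group count as replicates, and the labels do not say whether they are separate cultures. If they are not, a differing effect of azacitidine cannot be told apart from differences between cultures. For Gpnmb (adjusted p = 0.0311) the drug raised the level in each run, by 1.63, 2.13, 1.53 and 1.41 on the log2 scale. Hexa (adjusted p = 0.00238) was higher with the drug in numbers 1 to 4, 9 to 12 and 13 to 16 and lower in 5 to 8, where its untreated mean was 753 ± 55 CPM beside 434 to 543 CPM in the other runs (n = 4 each). With the drug its run means lay between 492 and 610 CPM, closer together than without. Lamp2 (adjusted p = 0.0381) had the same pattern, with 0.18, -0.19, 0.04 and 0.09 on the log2 scale.

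Among the other genes named, the interaction test gave adjusted p-values of 0.00238 for Cst6, with log2 fold changes of 0.85, 1.71, 1.00 and 0.87 that were highest in numbers 5 to 8 as for Gpnmb. It gave 2.27e-06 for Col1a2 and 0.00663 for Col1a1, whose decreases were also largest there. It gave 3.24e-07 for Usp18, 2.24e-07 for Ifit1, 5.98e-11 for Rtp4 and 3.24e-07 for Isg15, whose increases were smallest there (edgeR). For Cst3, Cxcl12 and Mmp9, which were not called for azacitidine, it gave 0.00743, 5.19e-05 and 0.0425 (edgeR). Their log2 fold changes were lowest in numbers 5 to 8, at -0.44, -0.64 and -1.63.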

How the results depend on the processing

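Gpnmb kept its direction and its call under 10 of 11 alternatives, with log2 fold changes from 1.68 to 2.10, and lost the call with sums over runs (1.80, edgeR adjusted p = 0.189). The number of members called as higher was 4, and 9 with the run as a term, 9 with the replicate number as a block and 0 with sums over runs. It was 3 to 5 otherwise, but the members differed. After thinning they were Gpnmb, Ctsk and Gusb, and Lgmn and Ctsh lost their calls (edgeR adjusted p = 0.246 and 0.247). With spike-in scaling they were Gpnmb, Ctsk, Lgmn and Cd68, and without numbers 1 to 4 Gpnmb, Gla and Cd68. The number called as lower was 1, and 0 with spike-in scaling, after thinning to 818619 UMIs, with sums over runs and with sums and a run term. Spike-in scaling turned the sign of Gaa, with a wide error (0.12, SE 0.20, not called). Over the other 35 tested members, 352 of 383 values stayed on the same side of the threshold. Of the rest, 14 lost a call with the same sign, 1 (Gaa under spike-in scaling) lost it with the opposite sign, and 16 gained one. But 31 of the 35 members had no call in the main fit, so they could only stay or gain one. Every lost call was of Cd68, Lgmn, Ctsh or Gaa. All genes called as higher numbered 341, and 563 with the run term, 518 with the block, 105 with sums, 314 with sums and a run term and 111 after thinning. For lower calls the main count was 187, and it was 430 with the run term, 379 with the block, 3 with sums, 86 with sums and a run term, 38 after thinning and 1 with spike-in scaling. The sums tested 12281 genes and the thinned counts 7288. Same-numbered libraries of the 2 groups correlated over 0.1 in 12 of 16 pairs (range -0.29 to 0.83), and 4 untreated and 3 treated libraries were most alike their own number, so the numbers were not taken to pair single libraries, although the runs of 4 numbers kept the order of Gpnmb in both groups. Depth limits Ctss, Tfeb and Cd68, of which few UMIs were counted.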
